A study of Mus musculus with 12 samples.

Results

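The BCL2 family of apoptosis regulators was followed here at the level of mRNA, ribosome footprints and their ratio in mouse Ba/F3 cells that express either the wild-type or the R98S form of human RPL10. The members were 10 genes named for their part in the family, from antiapoptotic genes to pore-forming effectors and BH3-only genes. All 10 are among the 41255 genes of the mRNA table, and 9 of them are among the 10080 genes of the footprint table. Pmaip1, which encodes the BH3-only protein NOXA, was listed at 0 in all 6 mRNA libraries and is not listed among the footprints, so it entered no test.

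BCL2 family proteins decide whether the outer mitochondrial membrane stays intact. Antiapoptotic members (BCL2, BCL-XL encoded by Bcl2l1, and MCL1) bind and hold back the pore-forming effectors BAX and BAK as well as the BH3-only proteins, which sense stress and either activate the effectors or occupy the antiapoptotic members. In cells that depend on interleukin 3 (IL-3), such as Ba/F3, cytokine signalling through STAT5, AKT and PIM kinases sustains BCL-XL and MCL1, and loss of the cytokine lets the BH3-only protein BIM (Bcl2l11) accumulate.

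Ba/F3 is an IL-3 dependent mouse lymphoid line. Cells received the human RPL10 cDNA, wild-type (WT) or R98S, by retroviral transduction, and the endogenous mouse Rpl10 was knocked down by shRNA in both genotypes. Single-cell-derived lines were used, R98S clones 11, 13 and 35 and WT clones 28, 29 and 36, so each library stands for 1 clone and the p-values measure the spread between clones. From each clone came a ribosome footprinting (RPF) library, merged from 3 technical replicates, and an mRNA library, all after cycloheximide at 100 μg/ml for 5 min. The comparison asks how the R98S form alters mRNA levels and translation.

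The mRNA libraries held 22178094, 21217231 and 20576796 counted reads in R98S clones 11, 13 and 35, and 21620993 and 23136595 in WT clones 29 and 36. The mRNA library of WT clone 28 stood apart with 6617457 reads, and a call that is lost without this clone is given with the value it then has. RPF libraries held 10883086, 6827929 and 3477723 reads in R98S clones 11, 13 and 35 and 7162305, 5619539 and 4611390 in WT clones 28, 29 and 36. Values are normalized counts, which are reads divided by a size factor per library. A counted 0 allows up to 3 reads, which is 8.06 normalized mRNA counts in WT clone 28 and 2.35 to 2.58 in the other clones. These floors cover counting error only. Whether the authors' annotation held a feature for Pmaip1 cannot be seen from its listed 0, so no bound is given for it.

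Mouse Rpl10 had 2905, 1449 and 2355 normalized mRNA counts in R98S clones 11, 13 and 35 and 4501, 2345 and 2230 in WT clones 28, 29 and 36. Both genotypes carry the knock-down and overlapped (log2 fold change -0.42, adjusted p = 0.551, limma), and cells without the shRNA were not analysed here. Among B lineage markers, Vpreb1, Igll1, Ebf1 and Pax5 had at most 3 reads in every mRNA library, while Cd79a ranged from 730 to 1357 normalized counts and Cd79b from 163 to 589. The list summed to 1666, 1350 and 1671 in R98S clones 11, 13 and 35 and to 1155, 1067 and 893 in WT clones 28, 29 and 36. The 4 genes of the haematopoietic and IL-3 response list were Ptprc, Il3ra, Csf2rb and Csf2rb2. They summed to 120902, 99455 and 120876 in R98S clones 11, 13 and 35 and to 46935, 92744 and 63429 in WT clones 28, 29 and 36. The receptor β-chain gene Csf2rb was the most abundant. Csf2rb rose in RPF (log2 change 1.02, adjusted p = 0.0392, limma, higher in 3 of 3 R98S clones), a call lost without R98S clone 11 (1.01, adjusted p = 0.135) or WT clone 36 (0.98, 0.118). In mRNA its change was 0.93 (adjusted p = 0.121, limma), which passed without WT clone 29 (1.25, 0.0246). Csf2rb2, another β-chain gene of the list, rose in RPF (log2 change 1.08, adjusted p = 0.00886, limma) and in mRNA (0.95, adjusted p = 0.0424, limma), higher in 3 of 3 R98S clones in both. Its mRNA call was lost without R98S clone 11 (0.92, adjusted p = 0.179), R98S clone 35 (0.88, 0.126) or WT clone 36 (0.95, 0.121). Ptprc of the same list had a log2 change of -0.8 in mRNA (adjusted p = 0.175, limma, and -1.12 with 0.0252 without WT clone 28) and fell in RPF (-1.19, adjusted p = 0.0157, limma, lower in 3 of 3 R98S clones), and Il3ra had -0.22 in mRNA (adjusted p = 0.691, limma). Of 4 mast cell and basophil markers, Kit and Fcer1a had at most 1 read in each library. The sum of these 4 was 15731, 15553 and 11933 in R98S clones 11, 13 and 35 and 26462, 20357 and 21857 in WT clones 28, 29 and 36, with Gata2 the most abundant. Gata2 fell in mRNA (log2 change -0.73, adjusted p = 0.0805, limma, lower in 3 of 3 R98S clones) and did not pass in RPF (-0.37, adjusted p = 0.402, limma). Its mRNA call was kept without WT clone 29 (-0.81, adjusted p = 0.0944) and lost without R98S clone 11 (-0.8, 0.198), R98S clone 13 (-0.81, 0.176), R98S clone 35 (-0.58, 0.194), WT clone 28 (-0.61, 0.101) or WT clone 36 (-0.75, 0.174). Cpa3, a mast cell protease of the same list, went the other way, with 644, 253 and 787 in R98S clones 11, 13 and 35 and 13.4, 174 and 54.9 in WT clones 28, 29 and 36. It rose with a log2 change of 3.28 in mRNA (adjusted p = 0.0506, limma) and 2.41 in RPF (adjusted p = 0.0154, limma), in 3 of 3 R98S clones in both. The mRNA call of Cpa3 was lost without R98S clone 11 (3.1, adjusted p = 0.161), R98S clone 35 (2.96, 0.138) or WT clone 36 (3.33, 0.141), and the change was 2.35 without WT clone 28 and 4.15 without WT clone 29. The RPF calls of Csf2rb2, Ptprc and Cpa3 were kept with each clone left out in turn. Markers of T cells summed to 2.46 to 18.8 normalized counts, those of erythroid cells to 14.6 to 172 (Hba-a1 the most abundant), and the 2 of 3 macrophage markers in the table to 99.2 to 162 (Cd68 the most abundant). Hba-a1 had 4.76, 1.64 and 2.58 in R98S clones 11, 13 and 35 and 169, 28.9 and 36.8 in WT clones 28, 29 and 36. It was lower in 3 of 3 R98S clones, with a fitted log2 change of -3.93 (adjusted p = 0.0147, limma) that depends on the pseudocount at such counts, was -3.15 without WT clone 28, and passed with each clone left out in turn. The part of these marker levels in the results below was not tested.

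Among 9 members with enough mRNA to test, Bcl2l1 and Bid fell in R98S clones and none rose, and among footprints Bcl2l1 and Mcl1 fell while Bax rose. Bcl2l1 carried the largest of these differences and was the only member past the threshold in both assays. The threshold was an adjusted p below 0.1 in limma, over all tested genes. For mRNA, 2 of 9 members passed it, against 6.94% of the 11344 tested genes. These 2 were lower in R98S (3.91% of all tested genes), and 0 members were higher (3.03%). For footprints, 3 of 9 members passed, against 7.76% of 9580 tested genes, with 1 higher (3.13%) and 2 lower (4.62%). Without R98S clone 11, R98S clone 13 or WT clone 36, the mRNA count in limma was 1, Bcl2l1. The RPF count was 1, also Bcl2l1, without R98S clone 11, R98S clone 13, WT clone 28 or WT clone 36, and no member was higher without WT clone 29. The median log2 fold change of the 9 members was -0.17 for mRNA and -0.049 for RPF, and that of all tested genes was 0.013 and 0.014. R98S and WT values were without overlap for 3 of 9 members in mRNA, against 23.5% of tested genes, and for 4 of 9 in RPF, against 25.3%. Before adjustment, 4 of 9 members had p below 0.05 in mRNA (17.9% of tested genes) and 4 of 9 in RPF (20.3%). An exact permutation test of 3 against 3 clones cannot go below p = 0.1, two-sided.

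**Figure D1:**
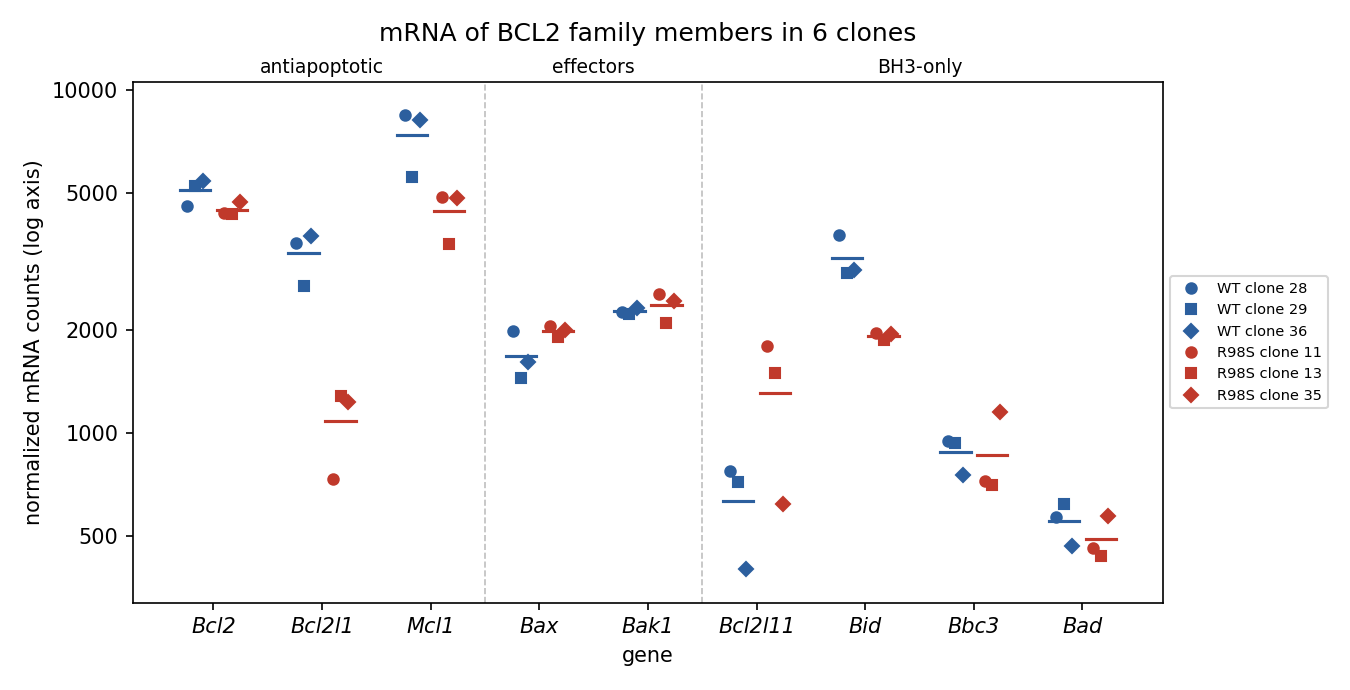
Normalized mRNA counts (log axis) of 9 BCL2 family genes in WT clones (blue) and R98S clones (red), with a point per clone and a line at the mean of 3 clones. R98S clones lie below all WT clones for Bcl2l1, Mcl1 and Bid, and the genotypes overlap for the other 6 genes.

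The antiapoptotic gene Bcl2l1 (mm10, chr2:152780668-152831728, minus strand) encodes BCL-XL, a STAT5-responsive survival factor. Its mRNA stood at 734 normalized counts in R98S clone 11, 1280 in clone 13 and 1230 in clone 35, and at 3588, 2682 and 3758 in WT clones 28, 29 and 36. Every R98S clone was below every WT clone, and clone 11 was the lowest. The R98S mean of 1081 ± 302 (SD, n = 3) was 32.3% of the WT mean of 3342 ± 578. The log2 fold change, on the scale of normalized count plus 1, was -1.66 (standard error 0.24, 95% confidence interval -2.2 to -1.11, adjusted p = 0.00614, limma). Footprints fell alike. Bcl2l1 had 142, 274 and 249 normalized RPF counts in R98S clones 11, 13 and 35 and 570, 525 and 900 in WT clones 28, 29 and 36. The RPF log2 fold change was -1.6 (standard error 0.29, 95% confidence interval -2.22 to -0.97, adjusted p = 0.0143, limma), lower in 3 of 3 R98S clones. Both calls held under all 15 alternatives, with mRNA values from -1.96 to -1.4 and RPF values from -1.91 to -1.3. In bulk libraries, fewer cells that express a gene and less RNA in each cell cannot be told apart.

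Mcl1 (mm10, chr3:95658788-95663176, plus strand) encodes a short-lived antiapoptotic protein that binds BAK and BIM. Its mRNA was 4873, 3563 and 4850 in R98S clones 11, 13 and 35 and 8421, 5571 and 8160 in WT clones 28, 29 and 36. The genotypes did not overlap, with clones 13 and 29 the lowest of their genotypes. The mRNA log2 fold change of -0.73 (standard error 0.21, 95% confidence interval -1.21 to -0.25) missed the threshold (adjusted p = 0.102, limma). It passed under 4 of 15 alternatives, which were DESeq2 on recovered reads (adjusted p = 0.0299), limma with library weights (0.0159), limma with a pseudocount of 5 (0.0999) and limma without WT clone 29 (-0.92, adjusted p = 0.0471). The highest adjusted p over the 15 was 0.349. Normalized RPF counts of Mcl1 were 1176, 1113 and 1365 in R98S clones 11, 13 and 35 and 1908, 1527 and 2466 in WT clones 28, 29 and 36. They fell, again without overlap, with a log2 fold change of -0.67 (standard error 0.20, 95% confidence interval -1.12 to -0.22, adjusted p = 0.098, limma). Mcl1 lies on chromosome 3, whose tested genes had a median log2 fold change of -0.31 in RPF and -0.29 in mRNA. With the median deviation of each chromosome removed, the mRNA change was -0.46 (adjusted p = 0.284, limma) and the RPF change -0.38 (adjusted p = 0.377, limma, the highest over the RPF alternatives, of which the lowest was 0.0125). The RPF call was also lost in limma without the trend (adjusted p = 0.162) and without R98S clone 11 (-0.65, adjusted p = 0.257), R98S clone 13 (-0.61, adjusted p = 0.309), WT clone 28 (-0.68, adjusted p = 0.173) or WT clone 36 (-0.49, adjusted p = 0.263).

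Bcl2 (mm10, chr1:106538178-106714274, minus strand), the founding antiapoptotic member, had 4364, 4344 and 4702 normalized mRNA counts in R98S clones 11, 13 and 35. WT clones 28, 29 and 36 had 4592, 5251 and 5428. The mRNA values overlapped at R98S clone 35 and WT clone 28, with a log2 fold change of -0.18 (95% confidence interval -0.53 to 0.16, adjusted p = 0.585, limma). Its footprints numbered 421, 634 and 450 in R98S clones 11, 13 and 35 and 427, 412 and 455 in WT clones 28, 29 and 36. R98S clone 13 was high and the other 5 clones lay between 412 and 455, so the RPF change of 0.19 (95% confidence interval -0.24 to 0.63, adjusted p = 0.628, limma) rested on that clone and was 0.014 without it. In the annotation, 6.09% of the exonic length of Bcl2 is shared with an antisense transcript on the other strand.

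**Figure D2:**
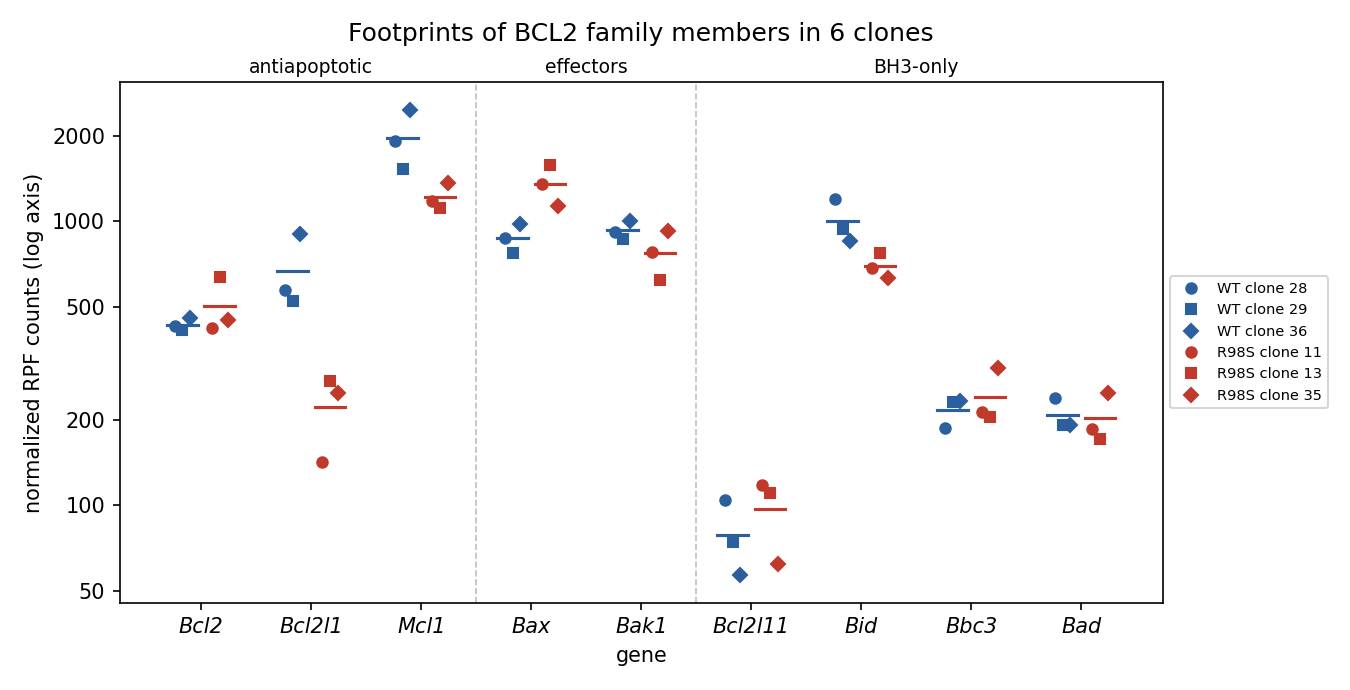
Normalized RPF counts (log axis) of 9 BCL2 family genes in WT clones (blue) and R98S clones (red), with a point per clone and a line at the mean of 3 clones. R98S clones lie below WT clones for Bcl2l1, Mcl1 and Bid and above them for Bax.

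The effector Bax (mm10, chr7:45461697-45466898, minus strand), whose protein oligomerizes into pores in the mitochondrial outer membrane, had 2043, 1906 and 1993 normalized mRNA counts in R98S clones 11, 13 and 35. WT clones 28, 29 and 36 had 1979, 1442 and 1610. WT clone 28 lay among the R98S clones, and the mRNA log2 fold change was 0.25 (95% confidence interval -0.14 to 0.64, adjusted p = 0.498, limma). In footprints the genotypes separated. Bax had 1350, 1573 and 1130 normalized RPF counts in R98S clones 11, 13 and 35 and 868, 770 and 974 in WT clones 28, 29 and 36. RPF rose from 871 ± 102 (SD, n = 3) to 1351 ± 222, a log2 fold change of 0.63 (standard error 0.19, 95% confidence interval 0.22 to 1.04, adjusted p = 0.091, limma), higher in 3 of 3 R98S clones. The call lay close to the threshold and was kept by 8 of 15 alternatives, with values from 0.43 to 0.75 and adjusted p from 0.0405 to 0.32. It was lost in limma without the trend (adjusted p = 0.151). It was also lost in limma without R98S clone 11 (0.62, adjusted p = 0.238), R98S clone 13 (0.51, adjusted p = 0.32), WT clone 28 (0.63, adjusted p = 0.166), WT clone 29 (0.54, adjusted p = 0.175) or WT clone 36 (0.71, adjusted p = 0.137). The tested genes of chromosome 7 had a median RPF log2 fold change of 0.20, and with chromosome medians removed the Bax change was 0.43 (adjusted p = 0.224, limma). The annotated protein-coding gene Gm45808 on the same strand shares 192 coding bases with Bax.

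Bak1 (mm10, chr17:27019810-27029009, minus strand) encodes BAK, the other effector, which resides on mitochondria. Its mRNA was 2539, 2094 and 2423 in R98S clones 11, 13 and 35 and 2245, 2214 and 2318 in WT clones 28, 29 and 36. The WT values lay inside the R98S range, with a log2 fold change of 0.054 (95% confidence interval -0.3 to 0.41, adjusted p = 0.901, limma). Footprints were 779, 618 and 920 in R98S clones 11, 13 and 35 and 914, 867 and 1001 in WT clones 28, 29 and 36. R98S clones 11 and 13 were below all WT clones and clone 35 was among them, with a log2 fold change of -0.28 (adjusted p = 0.439, limma). It was -0.13 without R98S clone 13 and -0.42 without R98S clone 35. Exons of Bak1 overlap Ggnbp1 on the opposite strand over 143 coding bases. The mRNA kit marks strand, but whether counting used it is not given in the sources used here.

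Of the BH3-only genes, Bid (mm10, chr6:120891930-120916853, minus strand) encodes a protein that caspase-8 cleaves, which links death receptors to mitochondria. Its mRNA was 1954, 1861 and 1937 in R98S clones 11, 13 and 35 and 3773, 2920 and 2980 in WT clones 28, 29 and 36. The R98S clones lay within a narrow range, all below WT, and the mean fell from 3224 ± 476 (SD, n = 3) to 1917 ± 49.5. The log2 fold change was -0.74 (standard error 0.17, 95% confidence interval -1.11 to -0.37, adjusted p = 0.0396, limma). The call was kept by 12 of 15 alternatives (adjusted p from 0.00425 to 0.155) and was lost without R98S clone 11 (-0.75, adjusted p = 0.155), R98S clone 13 (-0.72, adjusted p = 0.152) or WT clone 36 (-0.79, adjusted p = 0.102). Footprints of Bid were 683, 771 and 631 in R98S clones 11, 13 and 35 and 1197, 939 and 853 in WT clones 28, 29 and 36. They were again without overlap, but the log2 fold change of -0.51 (standard error 0.19, 95% confidence interval -0.92 to -0.096) did not pass (adjusted p = 0.154, limma, and from 0.133 to 0.341 over the alternatives). Exons of Bid share 628 bases with Bcl2l13 on the opposite strand.

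Bcl2l11 (mm10, chr2:128126038-128162547, plus strand), a FOXO3 target whose product BIM is a direct activator of the effectors, ranged from 400 to 1796 across clones. It had 1796, 1493 and 622 normalized mRNA counts in R98S clones 11, 13 and 35 and 773, 721 and 400 in WT clones 28, 29 and 36. R98S clones 11 and 13 were above all WT clones, and R98S clone 35 lay among them. The log2 fold change of 0.97 (standard error 0.40, 95% confidence interval 0.079 to 1.85) did not pass (adjusted p = 0.234, limma). It passed without R98S clone 35 (1.43, adjusted p = 0.0472, limma), with library weights (1.64, adjusted p = 0.00724, limma) and in DESeq2 on recovered reads (1.05, adjusted p = 0.0483), and the highest adjusted p over the alternatives was 0.602. Footprints of Bcl2l11 numbered 118, 110 and 62.1 in R98S clones 11, 13 and 35 and 104, 73.9 and 56.7 in WT clones 28, 29 and 36. These ranges overlapped widely, with a log2 fold change of 0.29 (95% confidence interval -0.42 to 1, adjusted p = 0.655, limma). With a clone left out it lay between 0.084 (without WT clone 36) and 0.58 (without R98S clone 35).

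The other BH3-only genes were Bbc3 (mm10, chr7:16308393-16318205, plus strand), which encodes the p53-induced activator PUMA, and Bad (mm10, chr19:6941861-6951899, plus strand), whose product is kept inactive by phosphorylation downstream of IL-3. Bbc3 mRNA was 723, 705 and 1149 in R98S clones 11, 13 and 35 and 945, 935 and 754 in WT clones 28, 29 and 36, and its footprints were 212, 204 and 304 and then 187, 230 and 233. R98S clone 35 was the highest in both. Bad mRNA was 463, 437 and 572 in R98S clones 11, 13 and 35 and 569, 621 and 467 in WT clones 28, 29 and 36, and its footprints were 186, 171 and 249 and then 239, 191 and 192. The genotypes overlapped for both genes in both assays. The mRNA changes were -0.062 for Bbc3 (95% confidence interval -0.57 to 0.45) and -0.17 for Bad (-0.63 to 0.29), with adjusted p of 0.924 and 0.722 in limma. In the annotation, 20.5% of the exonic length of Bad overlaps Gpr137 on the opposite strand.

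**Figure D3:**
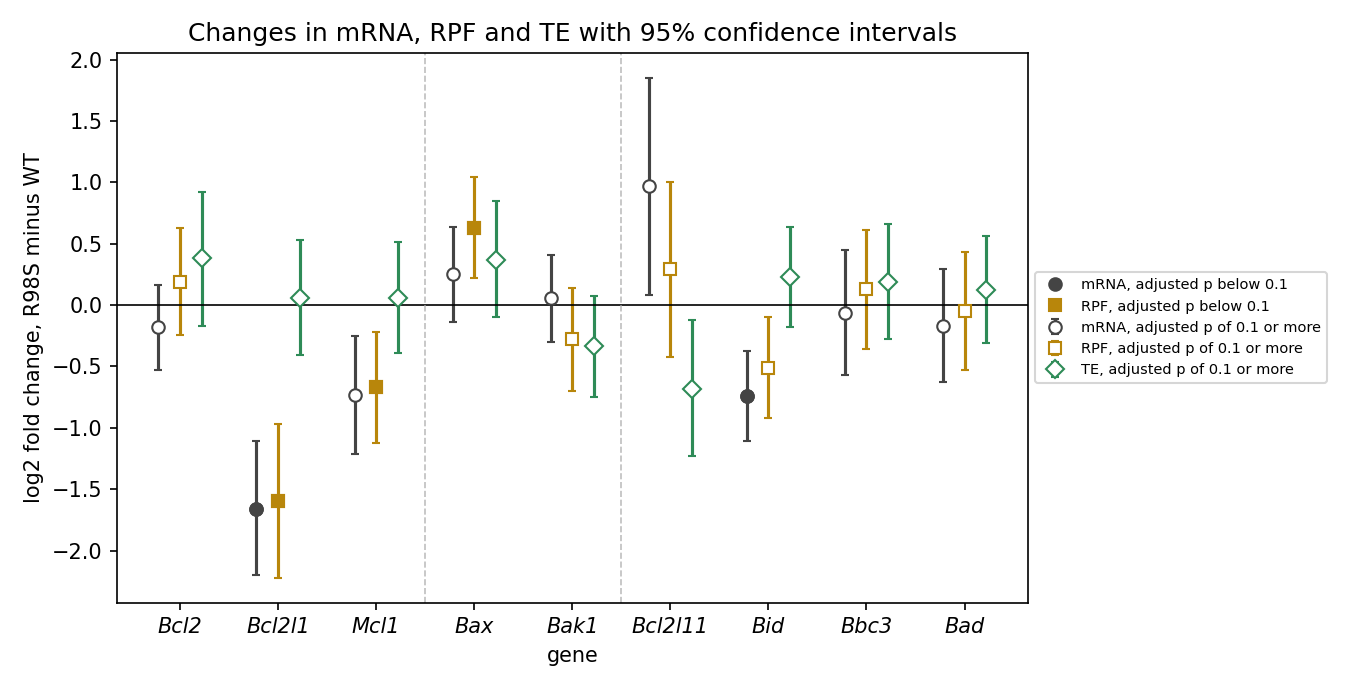
Log2 fold change of R98S against WT (3 clones each) for mRNA, RPF and TE of 9 BCL2 family genes, with 95% confidence intervals from limma. Filled symbols mark an adjusted p below 0.1, reached by Bcl2l1 in mRNA and RPF, by Bid in mRNA, and by Mcl1 and Bax in RPF.

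Translational efficiency (TE) was the ratio of RPF to mRNA in the same clone. None of the 9 members changed in TE at an adjusted p below 0.1 (limma), where 2 of 9043 tested genes passed (0.0221%). DESeq2 and edgeR interaction tests on recovered reads also called 0 members. Before adjustment 1 of 9 members, Bcl2l11, had p below 0.05, against 7.85% of tested genes. TE was without overlap between genotypes for 4 of 9 members, against 14.8% of tested genes. These were Bcl2 and Bid, higher in R98S clones, and Bak1 and Bcl2l11, lower in them. The median log2 TE change of the members was 0.12, and that of all tested genes was -0.0014.

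For Bcl2, RPF/mRNA was 0.0964, 0.146 and 0.0957 in R98S clones 11, 13 and 35 and 0.093, 0.0785 and 0.0838 in WT clones 28, 29 and 36. R98S clone 13 stood out, and the remaining R98S clones exceeded WT clone 28 by less than the spread among WT clones. The log2 change was 0.38 (standard error 0.24, 95% confidence interval -0.17 to 0.92, adjusted p = 0.691, limma, exact permutation p = 0.1), and it was 0.18 without R98S clone 13. For Bcl2l11, RPF/mRNA was 0.0657, 0.0735 and 0.1 in R98S clones 11, 13 and 35 and 0.135, 0.103 and 0.142 in WT clones 28, 29 and 36. R98S clone 35, with the least Bcl2l11 mRNA of its genotype, had the highest ratio there and came close to WT clone 29. The log2 change was -0.68 (standard error 0.25, 95% confidence interval -1.23 to -0.12, adjusted p = 0.629, limma, exact permutation p = 0.1). For Bcl2l1, RPF/mRNA was 0.194, 0.214 and 0.202 in R98S clones 11, 13 and 35 and 0.159, 0.196 and 0.24 in WT clones 28, 29 and 36, so the genotypes overlapped, where mRNA had fallen to 32.3% and RPF to 33.3% of the WT mean. Its log2 TE change was 0.06 (95% confidence interval -0.41 to 0.53), and that of Mcl1 was 0.059 (-0.39 to 0.51). For Bax, RPF/mRNA was 0.661, 0.825 and 0.567 in R98S clones 11, 13 and 35 and 0.439, 0.534 and 0.605 in WT clones 28, 29 and 36. R98S clone 35 lay below WT clone 36, and the log2 change was 0.37 (95% confidence interval -0.1 to 0.85, adjusted p = 0.666, limma). For Bak1 the ratio was 0.307, 0.295 and 0.38 in R98S clones 11, 13 and 35 and 0.407, 0.392 and 0.432 in WT clones 28, 29 and 36, a log2 change of -0.33 (95% confidence interval -0.75 to 0.078). For Bid it was 0.35, 0.414 and 0.326 in R98S clones 11, 13 and 35 and 0.317, 0.322 and 0.286 in WT clones 28, 29 and 36, a log2 change of 0.23 (95% confidence interval -0.18 to 0.64). The gap between the nearest clones of the genotypes was narrow for both. Ratios of Bbc3 (0.198 to 0.309) and Bad (0.307 to 0.435) overlapped.

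**Figure D4:**
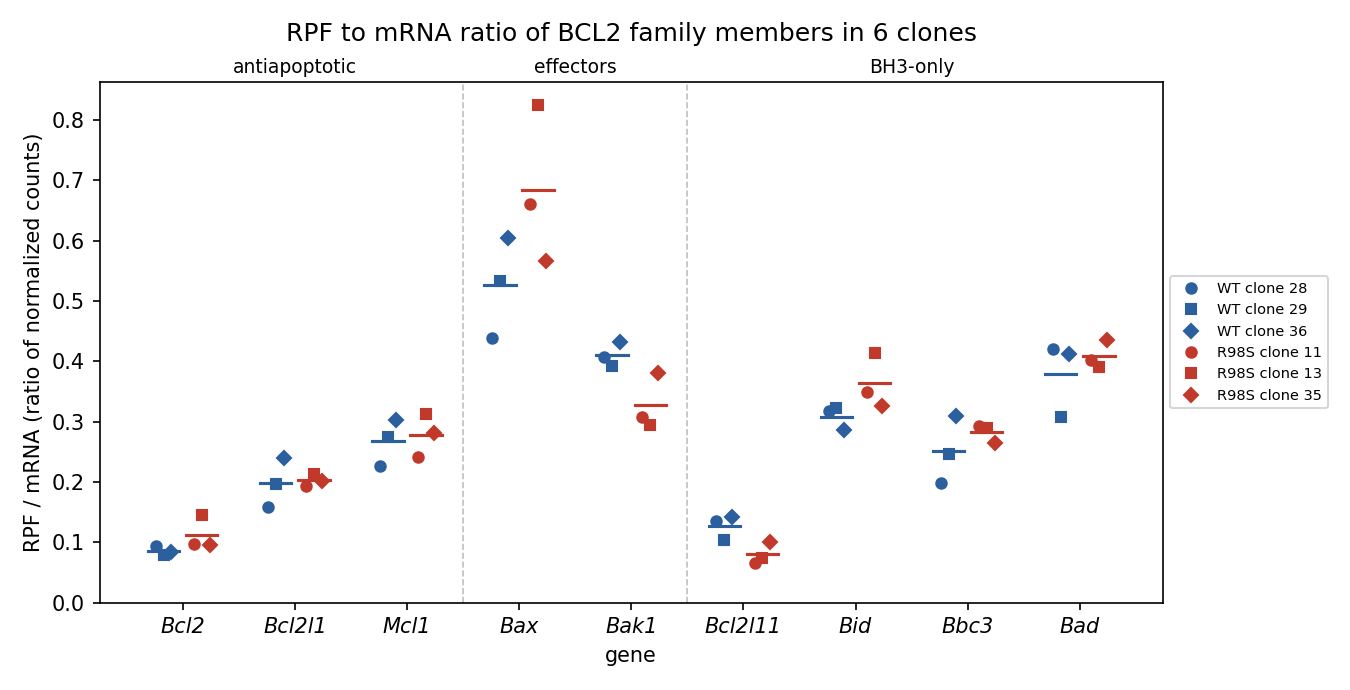
RPF/mRNA ratio of normalized counts for 9 BCL2 family genes in WT clones (blue) and R98S clones (red), with a point per clone and a line at the mean of 3 clones. The ratios span from 0.0657 (Bcl2l11, R98S clone 11) to 0.825 (Bax, R98S clone 13), and no member passed the threshold for a change.

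Levels were compared between members per length, as normalized mRNA counts per kb of exon and normalized RPF counts per kb of countable coding sequence. In WT clones, Mcl1 had the most mRNA per kb (2160 ± 461, SD, n = 3, above 97.0% of 10820 genes). Bax (1064 ± 174), Bak1 (938 ± 22.2) and Bid (908 ± 134) came next and overlapped one another. Bcl2l1 (729 ± 126) and Bcl2 (556 ± 48.1) overlapped each other, followed by Bbc3 (413 ± 50.7), Bad (216 ± 30.6) and Bcl2l11 (78.6 ± 25.2), which did not overlap their neighbours. In R98S clones, Mcl1 (1296 ± 219) and Bax (1257 ± 43.9) overlapped at the top of the mRNA order. Bcl2l1 (236 ± 65.9) overlapped Bad (192 ± 27.9) near its end, and its percentile among all genes went from 88.9 in WT to 65.8. Per kb of footprints, Mcl1 led in WT clones (2108 ± 506) and overlapped Bid (1898 ± 341) there. In R98S clones, Bax led (2439 ± 400), above Bid (1324 ± 135) in every clone. Exonic length is the union of annotated isoforms (9157 bases for Bcl2), so values per kb depend on the annotation.

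Within the antiapoptotic set, the makeup shifted. Bcl2l1 gave 20.9%, 21.0% and 21.6% of the summed mRNA per kb of Bcl2, Bcl2l1 and Mcl1 in WT clones 28, 29 and 36, and 7.76%, 15.5% and 12.2% in R98S clones 11, 13 and 35. Bcl2 gave 13.4%, 20.6% and 15.6% in WT and 23.1%, 26.4% and 23.3% in R98S clones in the same order. Both shares separated the genotypes, while that of Mcl1 overlapped (58.5% to 65.7% in WT, 58.0% to 69.1% in R98S). In footprints the share of Bcl2l1 was 25.3 ± 2.33% (SD, n = 3) in WT and 13.1 ± 3.04% in R98S clones, and that of Bcl2 was 17.9 ± 2.91% and 31.5 ± 5.35%. Per kb of footprints, the sum of these 3 genes was 2.23, 2.16 and 2.62 times that of Bax in WT clones 28, 29 and 36 and 0.858, 0.891 and 1.22 times in R98S clones 11, 13 and 35. Bax is the effector whose footprints rose. Bak1, the other effector, had 1362 ± 100 (SD, n = 3) RPF counts per kb in WT clones and 1134 ± 222 in R98S clones. Ratios to Bak1 were not computed. These shares and ratios are descriptions, with no test.

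**Figure D5:**
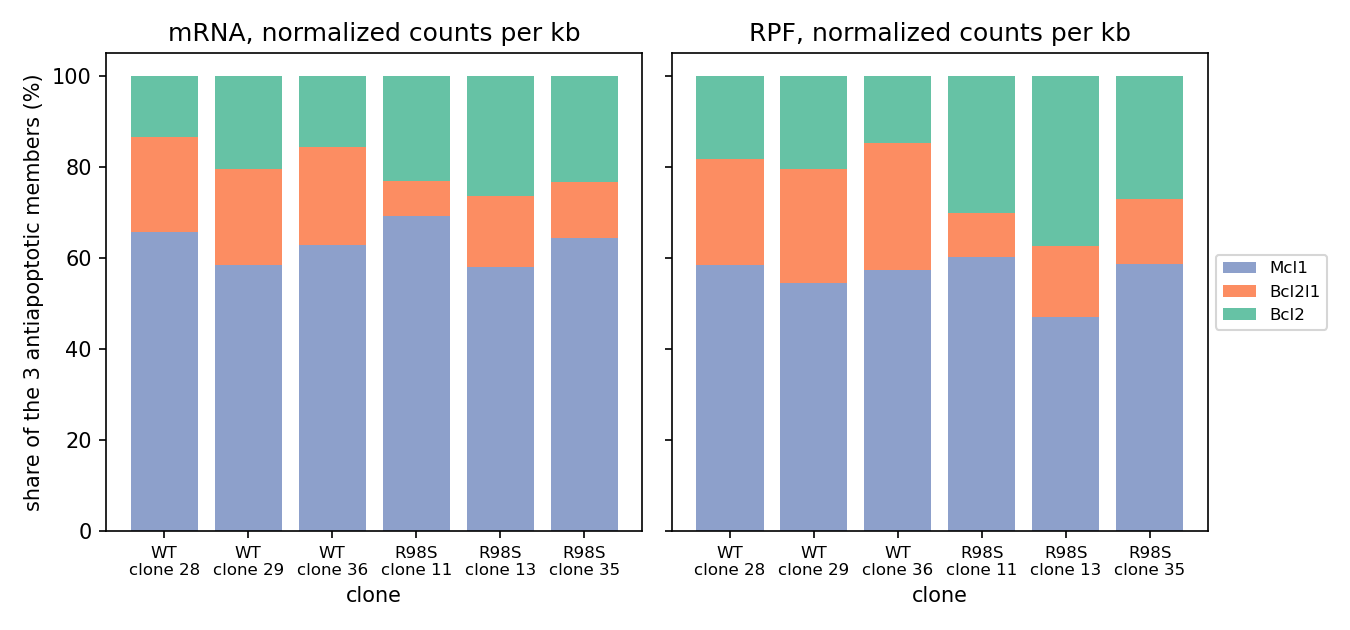
Stacked bars show, for each clone, the percentage that Mcl1, Bcl2l1 and Bcl2 contribute to their summed normalized counts per kb, for mRNA (left) and RPF (right). Bcl2l1 gives 20.9% to 21.6% of mRNA in WT clones and 7.76% to 15.5% in R98S clones.

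Promoter windows of the members whose mRNA or footprints changed are shown because Bcl2l1, Mcl1 and Bid were all lower without overlap and Bax was higher in footprints. RefSeq windows (GRCm38.p6, 250 bases before to 50 after a start) were read for 9 of 10 members, 15 windows in all. Windows of Pmaip1 were not looked for. Motifs searched on both strands, chosen after values were seen, were a STAT-type motif (TTCNNNGAA), a FOXO-type motif (GTAAACA), the motif type named GATA (spelled AGATAA), an AP-1-type motif (TGACTCA), an E-box (CACGTG), a CRE-type motif (TGACGTCA), a GC box (GGGCGG) and an ETS-type motif (CCGGAAGT). Capitals mark matches. The windows, written 5′ to 3′ along each gene, are chr2:152831679-152831978 (minus strand) for Bcl2l1, chr3:95658471-95658770 (plus) for Mcl1, chr6:120916775-120917074 (minus) for Bid and chr7:45466849-45467148 (minus) for Bax.
Bcl2l1: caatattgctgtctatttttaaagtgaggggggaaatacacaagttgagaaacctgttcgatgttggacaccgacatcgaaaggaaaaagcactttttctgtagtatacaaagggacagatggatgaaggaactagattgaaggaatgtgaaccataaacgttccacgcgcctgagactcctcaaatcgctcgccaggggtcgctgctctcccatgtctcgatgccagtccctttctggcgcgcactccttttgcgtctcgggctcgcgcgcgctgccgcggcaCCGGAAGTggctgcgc
Mcl1: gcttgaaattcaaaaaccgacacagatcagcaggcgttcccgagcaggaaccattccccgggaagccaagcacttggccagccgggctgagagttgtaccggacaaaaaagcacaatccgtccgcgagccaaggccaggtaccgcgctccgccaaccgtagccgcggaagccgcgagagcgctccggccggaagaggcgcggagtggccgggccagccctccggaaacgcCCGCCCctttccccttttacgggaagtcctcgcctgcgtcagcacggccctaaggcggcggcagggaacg
Bid: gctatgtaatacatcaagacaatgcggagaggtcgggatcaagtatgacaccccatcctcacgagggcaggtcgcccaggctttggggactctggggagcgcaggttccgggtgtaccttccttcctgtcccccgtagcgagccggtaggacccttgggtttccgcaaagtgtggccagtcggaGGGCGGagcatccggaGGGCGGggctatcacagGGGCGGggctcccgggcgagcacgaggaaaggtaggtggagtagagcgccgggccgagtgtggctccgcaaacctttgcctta
Bax: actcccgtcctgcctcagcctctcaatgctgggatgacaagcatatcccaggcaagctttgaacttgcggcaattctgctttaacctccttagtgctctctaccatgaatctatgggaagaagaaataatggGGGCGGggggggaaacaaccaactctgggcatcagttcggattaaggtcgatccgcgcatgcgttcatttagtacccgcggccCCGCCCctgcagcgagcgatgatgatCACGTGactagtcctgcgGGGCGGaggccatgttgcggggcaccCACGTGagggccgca
The Bcl2l1 window, at the most upstream of its 3 annotated starts, held 1 ETS-type match and no GC box. An ETS-type match is in 3.89% of 32851 promoter windows and a GC box in 35.7%. Mcl1 held 1 GC box and Bid held 3. Bax held 3 GC boxes and 2 E-boxes, a motif in 7.15% of windows. No searched motif was in all 3 of Bcl2l1, Mcl1 and Bid, and none of the 15 windows held a STAT-type match, which 8.3% of all windows have. FOXO-type matches, in 3.65% of all windows, were in 1 of 2 windows of Bcl2l11 and in 1 of 3 windows of Bbc3. GATA-type matches (11.2% of all windows) were in 1 of 3 windows of Bcl2l1, AP-1-type (5.2%) and CRE-type (1.79%) matches in none of the 15. A match is a description of the sequence, not a binding site.

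Start codon surroundings and 5′ leaders were read from the principal annotated transcript of each member, because TE was measured. The 6 bases before the start codon (capitals) and the base after it were as follows.
Bcl2: ggaaggATGg
Bcl2l1: ataaaaATGt
Mcl1: ccgaccATGt
Bax: gcagtgATGg
Bak1: tgaaaaATGg
Bcl2l11: gaccaaATGg
Bid: tgtgccATGg
Bbc3: agcgccATGg
Bad: atccaaATGg
A purine stood 3 bases before the start codon in 7 of 9 members, against 87.2% of 8779 genes tested for TE, and a G followed it in 7 of 9, against 55.0%. Bcl2 has an annotated leader of 1394 bases with 11 upstream ATG triplets, longer than 99.5% of these genes. Long leaders were also those of Bak1 (636 bases, percentile 95.6), Bad (462 bases, percentile 89.4) and Bcl2l1 (393 bases, percentile 85.0). Mcl1 has a leader of 69 bases with no upstream ATG. An upstream ATG was present in 7 of 9 members and in 50.2% of all 8779 genes. RPF per coding kb over mRNA per exonic kb was 1.16 ± 0.1 (SD, n = 3) for Bcl2 in WT clones, at percentile 56.9, and 2.08 ± 0.131 for Bid, whose leader has no upstream ATG, at percentile 84.0. Mcl1 was lowest of the 9 in WT (0.98 ± 0.14, percentile 47.4), and neighbours in this order overlapped throughout. Such ratios depend on the annotated exonic length of each gene.

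Among 60 further genes of apoptosis, in 5 lists, 6 passed the threshold in mRNA or RPF and none in TE. For mRNA, 4 of 50 tested genes passed (1 higher, 3 lower), against 6.94% of all tested genes. For RPF, 3 of 47 passed (1 higher, 2 lower), against 7.76%. Both counts are near these shares. All 7 of these calls came from limma at an adjusted p below 0.1. In TE, 0 of 47 passed in limma, and 4 had p below 0.05 before adjustment, against 7.85% of all tested genes. In limma, 0 genes of these lists passed without R98S clone 11, without R98S clone 13 or without WT clone 36. DESeq2 on recovered reads called 9.

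In the list of regulators of BCL2 family levels or activity, 3 of 16 genes had lower mRNA (3.91% of all tested genes) and 1 of 15 lower RPF (4.62%), with a median log2 fold change of -0.046 in mRNA and -0.0022 in RPF. The IL-3 induced survival kinase Pim1, the most abundant of this list per kb, had 6634, 6262 and 12121 normalized mRNA counts in R98S clones 11, 13 and 35. WT clones 28, 29 and 36 had 18650, 12251 and 16550, and R98S clone 35 was just below WT clone 29. In mRNA, Pim1 fell with a log2 change of -0.97 (SE 0.27, adjusted p = 0.0919, limma), and in RPF with -1.16 (SE 0.26, adjusted p = 0.0336, limma), lower in 3 of 3 R98S clones in both. The mRNA call was lost in limma without R98S clone 11 (-0.84, adjusted p = 0.308), R98S clone 13 (-0.8, 0.323), WT clone 28 (-0.84, 0.137) or WT clone 36 (-0.93, 0.233), with 0.0214 the lowest adjusted p over its alternatives. The RPF call was lost without R98S clone 11 (-0.99, adjusted p = 0.139), R98S clone 13 (-1.08, 0.157) or WT clone 36 (-1.1, 0.107), with 0.000666 the lowest, in DESeq2. Fbxw7, whose ubiquitin ligase targets MCL1, had 1317, 908 and 973 in R98S clones 11, 13 and 35 and 2060, 1440 and 1943 in WT clones 28, 29 and 36. Its mRNA fell without overlap, with a log2 change of -0.77 (SE 0.21, adjusted p = 0.0856, limma). Its footprints overlapped between genotypes and did not pass (log2 change -0.61, adjusted p = 0.435, limma). The mRNA call was kept in limma without WT clone 29 (-0.93, adjusted p = 0.0594) and in DESeq2 (0.0237). It was lost without R98S clone 11 (-0.93, adjusted p = 0.101), R98S clone 13 (-0.66, 0.3), R98S clone 35 (-0.71, 0.167), WT clone 28 (-0.67, 0.124) or WT clone 36 (-0.71, 0.243). Pim3, a kinase of the same family as Pim1, had 1, 1 and 12 recovered mRNA reads in R98S clones 11, 13 and 35 and 52, 22 and 50 in WT clones 28, 29 and 36. The fitted log2 change of -3.84 (SE 0.91, adjusted p = 0.0504, limma) depends on the pseudocount at such counts, and was -3.06 without WT clone 28, -4.72 without R98S clone 35 and -4.5 without WT clone 29. It did not pass without R98S clone 11 (-3.39, adjusted p = 0.161), R98S clone 13 (-3.4, 0.185) or WT clone 36 (-3.96, 0.143), and the lowest adjusted p over its alternatives was 0.00013, in DESeq2.

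In the list of other BCL2 family genes, Bcl2l14 had 208, 212 and 246 normalized mRNA counts in R98S clones 11, 13 and 35 and 75.2, 155 and 74.4 in WT clones 28, 29 and 36. It was higher in 3 of 3 R98S clones, with a log2 change of 1.21 (SE 0.32, adjusted p = 0.0768, limma), the single call among 7 tested genes, whose median was -0.013. Bcl2l14 footprints did not pass (log2 change 0.41, adjusted p = 0.474, limma). The mRNA call was lost in limma without R98S clone 11 (1.25, adjusted p = 0.212), R98S clone 13 (1.24, 0.225), R98S clone 35 (1.13, 0.155), WT clone 28 (1.04, 0.112) or WT clone 36 (1.03, 0.233), with 0.0191 the lowest adjusted p over its alternatives. Vdac1, a mitochondrial channel and the most abundant gene per kb of the list of apoptosome genes, caspases and released mitochondrial factors, had 1261, 1493 and 1461 mRNA counts per kb in R98S clones 11, 13 and 35 and 2512, 1926 and 1904 in WT clones, and did not pass (adjusted p = 0.108, limma). Fadd, the adaptor of death receptors, had 149, 175 and 153 normalized RPF counts in R98S clones 11, 13 and 35 and 87.9, 73.9 and 83.0 in WT clones 28, 29 and 36. Its footprints rose in 3 of 3 R98S clones, with a log2 change of 0.96 (SE 0.22, adjusted p = 0.037, limma), the single call among 8 tested genes of the death receptor pathway, where Casp8 was the most abundant per kb and overlapped between genotypes. In mRNA, Fadd did not pass (log2 change 0.74, adjusted p = 0.121, limma). The Fadd RPF call was lost in limma without R98S clone 11 (1.0, adjusted p = 0.112), R98S clone 13 (0.88, 0.172) or WT clone 36 (0.97, 0.102), with 0.00961 the lowest adjusted p over its alternatives. None of the 6 inhibitors of apoptosis passed in limma. All 6 had negative log2 fold changes in mRNA and in RPF, with medians of -0.25 and -0.2, against 0.013 and 0.014 over all tested genes. Birc5, the most abundant of them per kb, had a change of -0.0043 in mRNA.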

How the data were processed

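Per the authors' methods, footprint adapters were trimmed, rRNA and tRNA footprints were removed with Bowtie2, and reads were aligned to mm10 with TopHat2 2.0.11 and kept at mapping quality 10 or above. The authors counted mRNA reads on exons and RPF reads in coding sequence without the first 15 and last 5 codons, and deposited signal values, gene counts divided by DESeq2 size factors, 1 table per assay. Whole reads were recovered from 100% of values above 0 (within 0.01 of a whole read). Members and lists were chosen with earlier results of these data known. limma 3.58.1 with a trend was fitted to log2(value + 1) of genes with a mean of at least 10, and to the log2 RPF/mRNA ratio per clone of genes at 10 or more in all 12 libraries, with Benjamini-Hochberg adjustment over all tested genes and a threshold of 0.1. Scripts were tested on simulated data. mRNA and RPF libraries of a clone come from the same line, and their deviations from genotype means correlated across genes in every clone (r from 0.218 in WT clone 28 to 0.681, mean 0.519, over 6 clones), so TE used the pairing. On recovered reads, DESeq2 1.42.0 called 1314 genes in mRNA, 1093 in RPF and 6 in TE, and edgeR 4.0.16 called 810, 839 and 2. Babel was not run. Lengths came from GENCODE, which matched 36860 of 41255 mRNA and 9805 of 10080 RPF symbols. From the lists, genes past the threshold and the most abundant gene of each were named. Positions and sequence of Pmaip1 and the values of some listed genes are not reported here.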

Additional observations from a re-analysis of the deposited data

How the results depend on the processing

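Changed members numbered 2 in mRNA, 3 in RPF and 0 in TE. For mRNA, DESeq2 on recovered reads and library weights each gave 4 (1 higher, Bcl2l11, and 3 lower). For RPF, limma without the trend and removal of chromosome medians each gave 1 (0 higher, 1 lower, Bcl2l1). Leaving out each clone in turn gave 1 to 3 members in mRNA (0 to 1 higher, 1 to 3 lower), 1 to 3 in RPF (0 to 1 higher, 1 to 2 lower) and 0 to 0 in TE, and 0 to 8 genes of the other lists, where the main count was 6. TE without the replicate block also gave 0 members, and the other fits of TE gave 0. Some small values changed sign. Bbc3 RPF, at 0.13, was -0.068 with chromosome medians removed and -0.0083 with library weights, and Mcl1 TE was -0.01 with clone weights. Leaving out clones moved Bak1 mRNA from -0.0039 to 0.13, Bbc3 mRNA from -0.29 to 0.061, Bbc3 RPF from -0.055 to 0.23, Bad RPF from -0.21 to 0.061, Bad TE from -0.024 to 0.2, Bcl2l1 TE from -0.088 to 0.21 and Mcl1 TE from -0.056 to 0.16. The cause was not tested. Among all genes, calls numbered 315 to 1113 in mRNA, 229 to 1148 in RPF and 0 to 3 in TE when a clone was left out, and 2959, 1799 and 796 with weights. Leaving out a clone also leaves 2 against 3. The shallow mRNA library of WT clone 28 limits genes with few reads, and 3 clones per genotype limit changes of the size seen in TE.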

Other observations

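The following genes were singled out after their values were seen. Bnip3, a BCL2-related gene of mitophagy induced by hypoxia, split the WT clones. Its mRNA stood at 12991, 10045 and 12992 in R98S clones 11, 13 and 35. WT clones 28, 29 and 36 had 4890, 13858 and 4929, so that WT clone 29 was above every R98S clone and the others far below. RPF split the same way, with 2221, 1639 and 1800 in R98S clones 11, 13 and 35 and 686, 2300 and 770 in WT clones 28, 29 and 36. The mRNA change of 0.78 (standard error 0.36, adjusted p = 0.301, limma) did not pass. Without WT clone 29 it passed in limma, at 1.28 in mRNA (adjusted p = 0.0102) and 1.36 in RPF (adjusted p = 0.0099). With another clone left out instead, the adjusted p ranged from 0.43 to 0.585 in mRNA and from 0.282 to 0.532 in RPF.

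Some apoptosis genes had few counted footprints in both genotypes. The mRNA counts cover exons and the RPF counts part of the coding sequence. These values are not per length and come from separate normalizations, and the reason for low counts was not tested. Bcl2l2, which encodes the antiapoptotic protein BCL-W, had 573 to 781 mRNA counts and 1.06 to 17.1 RPF counts, both normalized. Its lowest RPF value, in R98S clone 11, was below 3 reads, which are 1.6 normalized counts there. Cflar, which encodes the caspase-8 inhibitor FLIP, had 1047 to 2083 mRNA counts and 18.5 to 43.5 RPF counts, and its RPF/mRNA ratio of 0.0197 ± 0.00444 (SD, n = 3) in R98S clones lay below 0.0303 ± 0.00189 in WT clones without overlap (log2 change -0.63, adjusted p = 0.649 in limma, exact permutation p = 0.1, the smallest that 3 against 3 allows).

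Foxo3 and Bcl2l11 had the same order of mRNA values among R98S clones but not among WT clones. Values of 3 clones can share an order by chance. In footprints Foxo3 had 646, 743 and 606 in R98S clones 11, 13 and 35, which is another order. A link between these genes was not tested. Foxo3 stood at 1954, 1721 and 996 in R98S clones 11, 13 and 35 (967, 1249 and 1169 in WT clones 28, 29 and 36), and Bcl2l11 at 1796, 1493 and 622 (773, 721 and 400). Trp53 mRNA was 2105, 2540 and 1870 in R98S clones 11, 13 and 35 and 1230, 1414 and 1806 in WT clones 28, 29 and 36. These values did not overlap, and the log2 fold change of 0.56 did not pass (adjusted p = 0.172, limma). Trp53 footprints overlapped, at 1775, 2317 and 1728 in R98S clones and 1938, 1164 and 1716 in WT clones. Their log2 fold change was 0.29 (adjusted p = 0.493, limma).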
